A study of Mus musculus with 8 samples.

Results

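The keratin genes of the mouse prostate were followed from normal tissue through prostatic intraepithelial neoplasia (PIN), a non-invasive lesion of atypical epithelial cells, to prostatic adenocarcinoma (PCa). Members were the genes of the count table whose symbol is Krt followed by a number and, in some, a letter. This rule took 50 of 27036 genes, 28 of type I and 22 of type II. They were sorted into 4 basal, 5 luminal and 41 other keratins, the last made up of 18 keratins of stratified epithelia, 22 of hair and inner root sheath and 1 (Krt222) with no class.

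RNA was sequenced from bulk prostate tissue in 8 libraries. The 3 wild-type (WT) libraries, labelled WT-control, came from normal prostate of sex- and age-matched R26mTmG/+:Osr1Cre/+ mice. The 3 PIN and 2 PCa libraries, labelled hARtg-Osr1Cre, came from R26mTmG/hAR:Osr1Cre/+ mice, in which Cre driven by the Osr1 gene switches on a human androgen receptor transgene in Osr1-lineage cells. All groups therefore carried the Osr1Cre and mTmG alleles, and the mice had a mixed C57BL/6 and 129S1/SvImJ background. The age of each animal behind a bulk library was not given in the sources used here, and nothing in the labels says whether replicates came from separate animals, so p-values measure the spread between these libraries. The PIN and PCa tissues were checked under the microscope to be mostly atypical or tumor cells, and no such selection is described for WT, so a difference in cell composition and a difference in stage cannot be told apart.

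Libraries held 21751803 to 29730420 counts. In the sample descriptions, PIN and PCa libraries carry numbers of a single series, whereas WT 1 and the other WT libraries carry lower numbers, so any batch effect and the difference from WT cannot be told apart. WT 2 and both PCa libraries stood apart most often. WT 2 was the highest of the 8 libraries for 22.1% of the 14034 tested genes, PCa 1 for 20% and PCa 2 for 22.3%, against 4.56% for WT 3. Genes of the seminal vesicle, a gland next to the prostate, summed to 11909 CPM (reads scaled to library size) per kb in WT 1, under 1 in WT 2 and WT 3, 70.9 to 150 in PIN, and 3422 and 846 in PCa. Their part in the keratin results was not tested. The human transgene was not analysed here.

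Keratins are the intermediate filament proteins of epithelial cells. A type I and a type II chain pair to build the filament, which is anchored to neighbouring cells at desmosomes and to the basement membrane at hemidesmosomes. In the prostate, basal cells are recognised by Krt5 and Krt14, with Krt15 and Krt17 in subsets, and secretory luminal cells by Krt8 and Krt18, with Krt19 in both layers. Krt7 is typical of ductal and transitional epithelia. Krt4, Krt6a, Krt78 and Krt80 belong to stratified epithelia and Krt6a is a classic wound-response keratin of skin. Loss of basal keratin staining is a textbook sign of invasive prostate cancer.

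The stretches of 250 bases before a RefSeq start of the 4 genes that carry the main contrasts are shown first. These genes are Krt5 and Krt14, the basal pair that set the tumors apart, Krt18 and Krt7. Krt18 had the highest keratin level per length averaged over the 8 libraries, and Krt7 is the luminal keratin that rose. The stretches are RefSeq sequences of GRCm38.p6, read 5′ to 3′ on the strand of the gene, whereas gene positions further on are those of mm9. For Krt14 the RefSeq start lies inside the gene span of mm9, with positions matched between builds through Krt10, Krt20 and Krt23. Its stretch is therefore not the one before the annotated gene. Krt5 is chr15:101712906-101713155 (minus strand), Krt14 chr11:100206031-100206280 (minus), Krt18 chr15:102027966-102028215 (plus) and Krt7 chr15:101412153-101412402 (plus). Capitals mark matches to any of 7 motifs named after the sequences.
Krt5: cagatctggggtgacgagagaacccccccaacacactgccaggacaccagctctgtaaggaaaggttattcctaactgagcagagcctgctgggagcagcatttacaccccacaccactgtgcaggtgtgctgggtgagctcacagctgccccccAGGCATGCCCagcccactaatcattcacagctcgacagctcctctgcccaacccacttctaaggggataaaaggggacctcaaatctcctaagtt
Krt14: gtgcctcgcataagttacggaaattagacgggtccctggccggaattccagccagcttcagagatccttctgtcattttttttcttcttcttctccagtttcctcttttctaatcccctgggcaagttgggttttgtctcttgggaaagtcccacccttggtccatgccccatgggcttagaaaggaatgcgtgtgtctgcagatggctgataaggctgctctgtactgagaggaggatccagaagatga
Krt18: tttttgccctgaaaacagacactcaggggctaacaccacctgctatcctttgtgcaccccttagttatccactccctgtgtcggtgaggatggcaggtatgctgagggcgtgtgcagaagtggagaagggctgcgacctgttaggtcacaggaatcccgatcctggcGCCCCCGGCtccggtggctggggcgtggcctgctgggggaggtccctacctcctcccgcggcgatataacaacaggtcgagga
Krt7: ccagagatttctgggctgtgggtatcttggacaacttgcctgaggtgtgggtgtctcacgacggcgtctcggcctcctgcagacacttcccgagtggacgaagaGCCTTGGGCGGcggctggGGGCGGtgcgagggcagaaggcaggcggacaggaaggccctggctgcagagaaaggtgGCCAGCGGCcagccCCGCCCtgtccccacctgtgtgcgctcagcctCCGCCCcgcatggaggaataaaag

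The capitals in Krt5 are a match to the p53-family half-site, 95 bases before the start. Krt18 holds an AP-2 motif (GCCNNNGGC) 83 bases before the start. The Krt14 stretch, which lies inside the gene, holds none of the 7, and this says nothing of the Krt14 promoter. The Krt7 stretch is the richest of the 4 in G and C (66.0%, against 49.6% for that of Krt14). It holds 2 AP-2 motifs, 146 and 70 bases before the start, and 4 GC boxes (GGGCGG). The GC box farthest upstream overlaps an AP-2 motif. Both strands were searched. Over the promoter windows that also take in 50 bases after the start, 34 of the 50 keratins had an entry in the table, with 35 windows. The Krt14 window inside the gene is among them. A GC box stood in 2 of these 35, against 35.7% of all 32851 promoters, and a TATA box (TATAAA) in 18 of 35, against 13.6%. AP-2 motifs stood in 5 of 35 keratin windows, against 16.6% of all, AP-1 motifs (TGANTCA) in 2 against 7.8%, TCF/LEF motifs (CTTTGA) in 8 against 16.0%, androgen receptor half-sites (TGTTCT) in 8 against 19%, and p53-family half-sites in 3 against 8.4%. Keratin genes lie in clusters of related copies, so these windows are not independent, and a match of letters is a description and not a binding site.

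A gene was tested when it passed 1 CPM in at least 2 libraries, which 15 keratins did: all 4 basal, all 5 luminal, 6 of stratified epithelia and none of hair. A gene was called when its log2 fold change passed 1 in either direction with an adjusted p below 0.05 in edgeR's quasi-likelihood test over all tested genes. No keratin was called between PIN and WT, where 0% of all tested genes were called, and DESeq2 called none either. In the edgeR test 3.51% of all tested genes had an unadjusted p below 0.05, among them 3 of the 15 keratins (Krt4, Krt6a and Krt20). Of these, Krt20 passed the filter only with WT 1 and WT 2, where it is high. Most PIN reads of Krt6a came from PIN 1, so nothing is read from this count. Between PCa and WT 3 keratins were called, all higher in PCa: Krt7, Krt80 and Krt6a, of which Krt6a passed the filter only with the PCa libraries, where it is high. Over all tested genes 8.54% were called, 4.35% higher and 4.18% lower in PCa. Between PCa and PIN Krt80 alone was called, again higher in PCa, where 5.72% of all tested genes were called, 2.55% higher and 3.17% lower. The median log2 fold change of the 15 keratins was 0.36 between PIN and WT, 0.42 between PCa and WT and 0.93 between PCa and PIN, beside medians of -0.02, 0.01 and 0.07 over all tested genes.

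**Figure D1:**
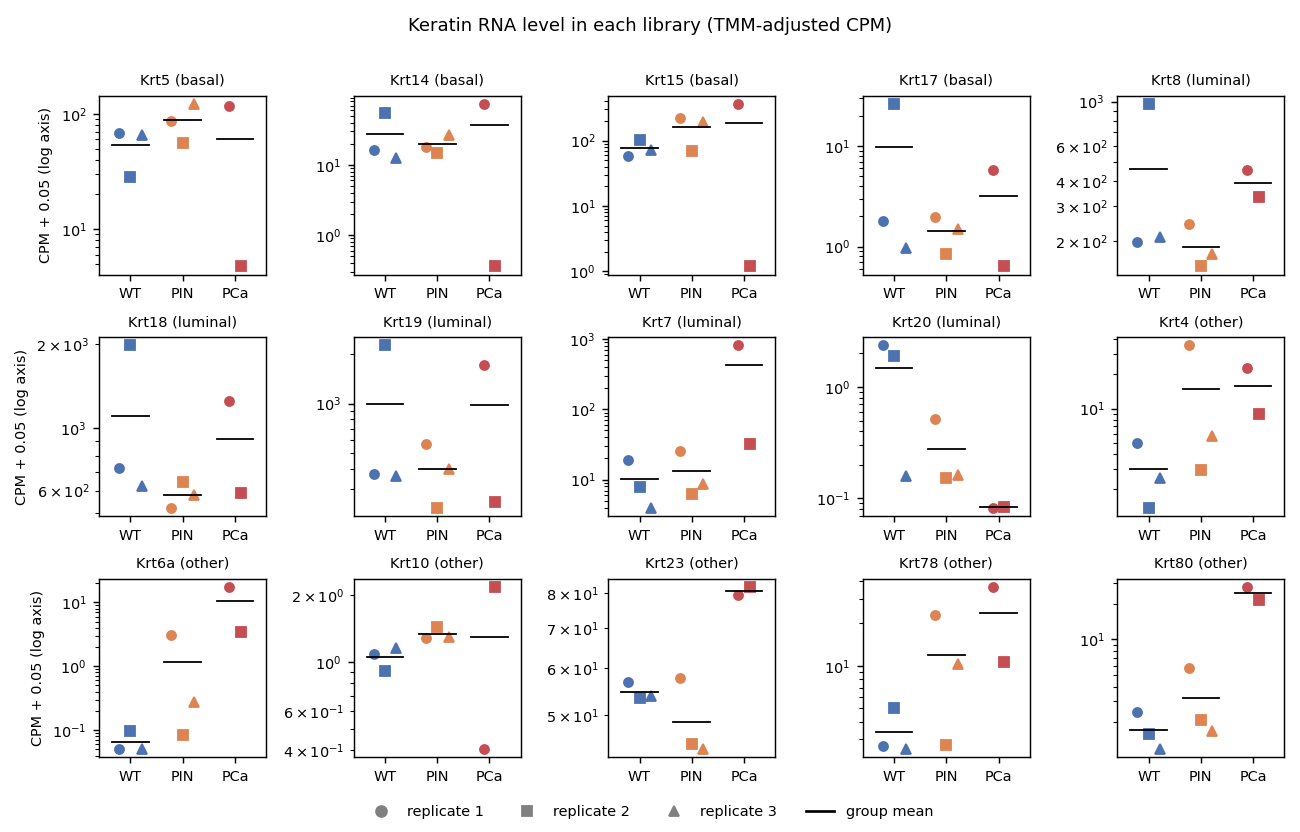
Level of each tested keratin in each library, as CPM plus 0.05 on a log axis, with a marker for each library (replicate 1, 2 or 3) and a line at the group mean; each panel has its own scale. PCa 2 lies below all other libraries for Krt5, Krt14, Krt15 and Krt17, and both PCa libraries lie above all others for Krt7, Krt80, Krt6a and Krt23.

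None of the 4 basal keratins was called between stages, and the tumors differed from each other in all 4. Krt5 (ENSMUSG00000061527, chr15:101537501-101543322 in mm9), the type II keratin of basal cells, stood at 68.2, 28.1 and 65.6 CPM in WT, 86.8, 55.4 and 122 in PIN, and 117 and 4.70 in PCa. PCa 1 was thus near the top of the PIN range and PCa 2 below every other library. Krt14 (chr11:100064476-100068862), its type I partner, read 16.3, 54.7 and 12.4 CPM in WT, 17.7, 14.9 and 26.2 in PIN, and 74.3 and 0.31 in PCa, which were its highest and lowest libraries. Krt15 (chr11:99993072-99997263), a type I keratin that marks quiescent basal and progenitor-like cells in several epithelia, read 57.3, 103 and 71.0 CPM in WT, 220, 68.2 and 196 in PIN, and 368 and 1.13 in PCa. Krt17 (chr11:100117531-100122343), a type I keratin induced in injured and activated epithelium, read 1.73, 26.4 and 0.92 CPM in WT, 1.91, 0.79 and 1.43 in PIN, and 5.73 and 0.58 in PCa. WT 2 was far above the other WT libraries for Krt17, and the groups overlapped for all 4 basal genes in all 3 comparisons.

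In the PCa library with high basal keratins, Krt15 was 325 times as high as in the other (95% counting interval 231 to 472), Krt14 241 times (127 to 527), Krt5 24.8 times (20.9 to 29.6) and Krt17 9.83 times (5.97 to 17.2). The intervals cover counting error only and compare these libraries, not conditions. Over all tested genes, 8.24% were more than 10-fold higher in PCa 1 than in PCa 2, and 25.1% had their lowest value of the 8 libraries in PCa 2. In the fit across all libraries none of the 4 basal keratins was called: the log2 fold change between PCa and WT was 0.17 ± 1.02 (SE) for Krt5, 0.42 ± 1.44 for Krt14, 1.26 ± 1.46 for Krt15 and -1.62 ± 1.51 for Krt17, with adjusted p from 0.535 to 0.940. Without PCa 1, Krt5 (-3.51, adjusted p = 0.0177), Krt14 (-6.46, adjusted p = 0.0139) and Krt15 (-6.07, adjusted p = 0.00639) were called lower in PCa than in WT, on a lone tumor assumed to vary like the other groups. They were likewise called lower than in PIN, at -4.21, -5.95 and -7.13 (adjusted p = 0.0120, 0.0184 and 0.00497). Without PCa 2 the same fold changes between PCa and WT were positive and not called, at 1.12, 1.44 and 2.27 (adjusted p = 0.227, 0.252 and 0.0502). Without PCa 1, 2477 of all tested genes were called between PCa and WT, against 1198 with it, and 2251 between PCa and PIN, against 803. In this bulk tissue, fewer cells of a type and less RNA per cell cannot be told apart.

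Between PIN and WT, Krt15 had a log2 fold change of 1.07 ± 1.34 and Krt5 of 0.71 ± 0.92, both with adjusted p = 1. PIN 1 and PIN 3 lay above the WT range for both genes, whereas PIN 2 lay inside it. For Krt14 (-0.51 ± 1.31) and Krt17 (-2.81 ± 1.37) the estimate was set by WT 2: without that library it was 0.45 and 0.062.

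Krt8, Krt18 and Krt19 made up most keratin RNA in every library, between 68.5% and 94.8% of keratin counts. Krt18 (ENSMUSG00000023043, chr15:101858647-101862457), the type I keratin of simple epithelium and luminal cells, read 723, 1980 and 621 CPM in WT, 520, 641 and 578 in PIN, and 1251 and 588 in PCa. Krt8 (chr15:101827142-101834773), its type II partner, read 198, 975 and 209 CPM in WT, 243, 149 and 171 in PIN, and 453 and 333 in PCa. Krt19 (chr11:100002124-100009979), the smallest keratin, found in luminal and intermediate cells, read 372, 2264 and 361 CPM in WT, 566, 232 and 401 in PIN, and 1712 and 251 in PCa. WT 2 was the highest library for all 3, and without it the WT values of these genes lay within the range spanned by PIN and PCa.

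None of these 3 keratins was called in any comparison. Between PCa and WT the log2 fold change was -0.27 ± 0.57 for Krt18, -0.23 ± 0.70 for Krt8 and -0.03 ± 1.02 for Krt19, with adjusted p of 0.795, 0.863 and 0.991. Without WT 2 these turned to 0.45, 0.95 and 1.42, still uncalled. Krt8 was higher in both PCa libraries than in all PIN libraries, with a log2 fold change of 1.06 ± 0.68 (adjusted p = 0.397), and 21.1% of all tested genes did not overlap in that direction. Between PIN and WT the values were -1.29 ± 0.63 for Krt8, -0.93 ± 0.51 for Krt18 and -1.32 ± 0.93 for Krt19, each with adjusted p = 1. Without WT 2 they were -0.12, -0.21 and 0.12.

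Krt7 (ENSMUSG00000023039, chr15:101241474-101260744, plus strand), a type II keratin of ductal, glandular and urothelial cells, rose in PCa. It read 18.8, 7.88 and 3.92 CPM in WT, 25.2, 6.23 and 8.74 in PIN, and 816 and 31.6 in PCa. Both tumors were above all other libraries, but PCa 1 was 25.8 times as high as PCa 2 (24.2 to 27.6). The log2 fold change between PCa and WT was 5.38 ± 1.32 (adjusted p = 0.0468), and between PCa and PIN it was 4.98 ± 1.30 (adjusted p = 0.0669). The call between PCa and WT held in 5 of 15 alternative fits, over which adjusted p ran from 1.61e-05 to 0.254: it was lost when any WT library, any PIN library or PCa 1 was left out. Without PCa 1 the fold change fell to 1.64 (adjusted p = 0.254), and without WT 1, WT 2 or WT 3 it was 6.17, 5.22 or 4.99 (adjusted p = 0.0829, 0.117 and 0.138). Between PIN and WT the log2 fold change of Krt7 was 0.39 ± 1.08 (adjusted p = 1).

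Krt7 is also expressed in urothelium and seminal vesicle. The 5 urothelial markers summed to 128 to 176 CPM per kb in WT, 146 to 213 in PIN, and 53.5 in PCa 1 and 128 in PCa 2. Among them Upk2, a uroplakin, read 0.997 to 4.4 CPM in WT and 8.40 and 72 in PCa (log2 fold change 4.15, adjusted p = 0.0428), while Upk1b read 168 to 218 CPM in WT, 225 to 355 in PIN and 4.54 and 38.6 in PCa (-3.64 between PCa and PIN, adjusted p = 0.0487). PCa 1, with 816 CPM of Krt7, was lower than PCa 2 for Upk2, Upk1b and Upk3a and higher for Upk1a (52.8 and 29.0 CPM) and Upk3b (0.61 and 0.034 CPM). The summed seminal vesicle level and Krt7 were both highest in WT 1 among the WT libraries and higher in PCa 1 than in PCa 2. Their part, and that of urothelium, in the Krt7 result was not tested.

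Krt20 (chr11:99289717-99299464), a type I keratin of urothelial umbrella cells and intestinal epithelium, had the lowest level per length of the tested keratins averaged over all libraries, though not within WT. Its counts were 47, 41 and 3 in WT, 13, 3 and 3 in PIN, and 1 and 1 in PCa. Both PCa libraries were below all others, and summed over libraries the scaled WT count was 39.4 times that of PCa (10.6 to 330). The log2 fold change between PCa and WT was -5.24 ± 1.60 (adjusted p = 0.0826) and Krt20 was not called. DESeq2 called it, at -5.40 (adjusted p = 0.00998). Krt20 passed the filter only with WT 1 and WT 2, where it is high, so nothing is read from this difference.

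**Figure D2:**
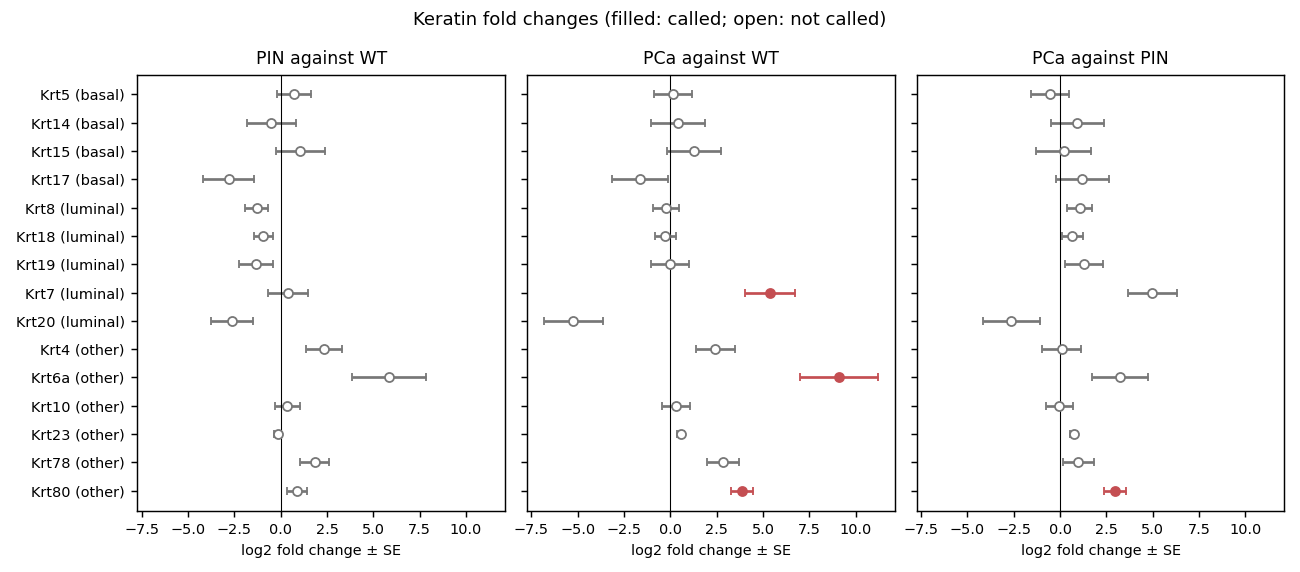
Log2 fold change of each tested keratin in the 3 comparisons, with bars of 1 SE from edgeR, filled where called. In PIN against WT no point is filled; Krt7, Krt6a and Krt80 are filled in PCa against WT, and Krt80 in PCa against PIN. The size for Krt6a depends on the prior count, since WT held 1 read.

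Of the called keratins of stratified epithelia, Krt80 and Krt6a, Krt80 gave the steadier difference. Krt80 (ENSMUSG00000037185, chr15:101177875-101200556), a type II keratin that joins the filament network near desmosomes in differentiating epithelium, read 2.37, 1.54 and 1.13 CPM in WT, 5.72, 2.03 and 1.66 in PIN, and 27.8 and 21.4 in PCa. The tumors lay within 1.30 times of each other and above all other libraries. The log2 fold change was 3.87 ± 0.61 between PCa and WT (adjusted p = 0.0134) and 2.97 ± 0.59 between PCa and PIN (adjusted p = 0.0338), and 0.90 ± 0.54 between PIN and WT (adjusted p = 1). The call between PCa and WT held in 14 of 15 alternative fits and was lost without WT 3 (3.65, adjusted p = 0.0587). The call between PCa and PIN held in 9 of 15 and was lost without WT 1, WT 3, PIN 2 or PIN 3 (2.97, 2.97, 2.73 and 2.66, adjusted p from 0.0503 to 0.126). That call was also lost in a fit of only the groups compared and in a fit with the replicate number as a block.

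Krt6a (ENSMUSG00000058354, chr15:101520363-101524738), a type II keratin of wounded and hyperproliferative epithelium, was almost absent from WT. Its counts were 0, 1 and 0 in WT, 85, 1 and 6 in PIN, and 546 and 99 in PCa. Both tumors were above every PIN library, and PIN 1 was the highest of its group. Summed over libraries and scaled by library size, PCa held 745 times as many reads as WT (133 to 29487) and PIN 76.8 times (13.5 to 3067). Of the 92 PIN reads 85 came from PIN 1, and the fitted log2 fold change between PIN and WT was 5.85, and 2.78 without that library, and was not called in either fit. The fitted log2 fold change between PCa and WT was 9.09 ± 2.11 (adjusted p = 0.0402), and without the filter on low counts 9.04 (adjusted p = 0.0368). The call held in 8 of 15 alternative fits, with adjusted p from 3.93e-05 to 0.130, and was lost without WT 1, WT 2, WT 3, PIN 3 or PCa 1 (8.70, 11.2, 8.54, 9.09 and 7.47, in that order). The call was also lost in a fit of only the groups compared and in a fit with the replicate number as a block. Between PIN and WT adjusted p was 1. Of the stretches of 50 bases in its transcripts, 47.9% also occur in another keratin, 43.1% in Krt6b, so its reads could have been split or dropped; Krt6b itself had 3 reads in PIN 1, 2 in PCa 1 and none elsewhere.

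Krt4 and Krt78, keratins of the lining of mouth and esophagus, were higher in both tumors than in all WT libraries without being called. Krt4 (type II, chr15:101748967-101755166) read 4.99, 1.31 and 2.42 CPM in WT, 35.5, 2.86 and 5.73 in PIN, and 22.4 and 8.95 in PCa. Krt78 (type II, chr15:101776435-101784718) read 2.62, 4.94 and 2.49 CPM in WT, 22.8, 2.69 and 10.2 in PIN, and 36.6 and 10.7 in PCa. Within PIN both were highest in PIN 1, which also led its group for Krt6a, Krt7 and Krt80. The log2 fold change between PCa and WT was 2.43 ± 1.06 for Krt4 (adjusted p = 0.186) and 2.82 ± 0.87 for Krt78 (adjusted p = 0.0840), and between PIN and WT 2.34 ± 0.99 and 1.83 ± 0.79 (adjusted p = 1 for both). With 1 library left out, the values between PIN and WT ran from 0.55 to 2.97 for Krt4 and from 0.93 to 2.30 for Krt78. DESeq2 called Krt78 between PCa and WT (2.83, adjusted p = 0.00816).

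PIN 1 also led its group for Ly6a (Sca-1), a marker of proximal luminal cells, a progenitor-rich population near the urethra. It read 38.8, 22.6 and 27.0 CPM in WT, 468, 70.5 and 142 in PIN, and 481 and 313 in PCa. All PIN and PCa libraries were above all WT libraries. Ly6a was called higher in PCa than in WT (log2 fold change 3.75, adjusted p = 0.0250), and its log2 fold change between PIN and WT was 2.94 (adjusted p = 1). Whether Ly6a shares cells with Krt4, Krt78 and Krt6a was not tested.

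Krt23 and Krt10 were not called in any comparison. Krt23 (type I, chr11:99339288-99354451) read 56.8, 53.4 and 53.8 CPM in WT, 57.7, 44.8 and 43.8 in PIN, and 79.5 and 82.0 in PCa. Its groups did not overlap between PCa and either other group, and the log2 fold change of 0.73 ± 0.19 between PCa and PIN (adjusted p = 0.0651) and of 0.56 ± 0.19 between PCa and WT (adjusted p = 0.104) stayed below the fold limit. Krt10 (type I, chr11:99246568-99250678), a keratin of suprabasal epidermis, stood at 0.86 to 1.10 CPM in WT and 1.22 to 1.38 in PIN, the only tested keratin whose PIN values all lay above WT, with 6.48% of tested genes doing so and 6.38% lying below, as no tested keratin did. It read 0.35 and 2.13 CPM in PCa. The difference between PIN and WT was 0.36 ± 0.66 on the log2 scale (adjusted p = 1), and a gene on the opposite strand (Gm11940) overlaps Krt10, so reads of the pair could be mixed where counting ignores strand.

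Over the 15 tested keratins, PCa and WT did not overlap for 7, of which 6 were higher in PCa (Krt4, Krt6a, Krt7, Krt23, Krt78 and Krt80) and 1 lower (Krt20). Over all tested genes 17.7% did not overlap in the higher and 19.6% in the lower direction. PCa and PIN did not overlap for 5 higher keratins (Krt6a, Krt7, Krt8, Krt23 and Krt80) and 1 lower (Krt20), against 21.1% and 23.2% of tested genes. Krt6a passed the filter only with the PCa libraries and Krt20 only with WT 1 and WT 2, where each is high. Their places in these counts are therefore not evidence of a difference. These comparisons share libraries, and each group's own values are those given above.

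The other 35 keratins did not pass the filter, and 6 of them had 0 counts in all libraries (Krt12, Krt24, Krt26, Krt27, Krt28 and Krt40). The 22 hair and inner root sheath keratins together had 12, 9 and 25 counts in WT, 25, 7 and 11 in PIN, and 134 and 96 in PCa. The following members were picked out after their values were seen. Krt83 had 54 counts in PCa 1 and none in any other library, and lies 1177 bases from Krt7 on the opposite strand. Krt84 had 24 counts in PCa 1 and at most 1 elsewhere, whereas Krt73 had 16 in PCa 2 and at most 3 elsewhere. Krt36 (9 and 37 counts), Krt32 (16 and 11) and Krt33a (9 and 12) had reads in both tumors and at most 3 in any WT or PIN library. Fitted without the filter, none of the 29 untested keratins with reads was called in any comparison. Several of these genes share stretches of 50 bases with other keratins, 43.2% of them in Krt81 and Krt86 and 47.3% in Krt6b.

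Krt39 and Krt1 ran the other way. Krt39 had 6, 6 and 21 counts in WT, 17, 6 and 9 in PIN, and 0 and 2 in PCa. Krt1, the type II keratin of suprabasal epidermis, had 17, 21 and 21 counts in WT, 19, 17 and 18 in PIN, and 3 and 0 in PCa. Without the filter its log2 fold change was -4.04 between PCa and WT (adjusted p = 0.0725) and -3.65 between PCa and PIN (adjusted p = 0.111), so it was not called. A count of 0 allows up to 3 reads.

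Levels of different genes are comparable only per length. As CPM per kb of summed exon length, averaged over the 8 libraries, the order was Krt18 (616), Krt19 (415), Krt8 (189), Krt15 (75.8), Krt23 (37.7), Krt5 (31.3), Krt7 (16.3), Krt14 (15.4), Krt4 (4.94), Krt78 (3.38), Krt17 (3.13), Krt80 (1.85), Krt6a (1.35), Krt10 (0.56) and Krt20 (0.33). The ranges over libraries of neighbours in this order overlap throughout. The average pools the groups, so the order is not that of each group: the value of Krt7 rests on PCa 1 (116 CPM per kb, against 0.56 to 4.48 in the other libraries), and Krt6a was near 0 in WT. The exons of Krt7 sum to 7049 bases, whereas its longest coding transcript has 4094, so its level per length is a low estimate.

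On that scale, basal keratins made up 7.78%, 3.55% and 8.89% of the keratin total in WT, 16.5%, 9.38% and 19.2% in PIN, and 11.8% and 0.407% in PCa. All PIN libraries were above all WT libraries, PCa 1 lay within the PIN range and PCa 2 below every other library. The mean share was 6.74% ± 2.82 (SD, n = 3) in WT and 15.04% ± 5.09 (SD, n = 3) in PIN. Luminal keratins held 87.8%, 95.3% and 86.7% in WT, 77.3%, 86.4% and 77.0% in PIN, and 84.7% and 91.1% in PCa, so that each PIN library was below each WT library. The remaining keratins held 1.14% to 4.39% in WT, 3.78% to 6.15% in PIN, and 3.49% and 8.47% in PCa. These shares are descriptions without a test. They sum to the whole, so a higher share of one class need not be a higher level.

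The summed levels show the same libraries in absolute terms. Basal keratins summed to 73.6, 118 and 77.3 CPM per kb in WT, 174, 72.4 and 181 in PIN, and 305 and 3.32 in PCa. Luminal keratins summed to 831, 3177 and 755 in WT, 815, 667 and 725 in PIN, and 2183 and 744 in PCa. All keratins together took 0.142%, 0.415% and 0.129% of counts in WT, 0.183%, 0.126% and 0.146% in PIN, and 0.659% and 0.160% in PCa.

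**Figure D3:**
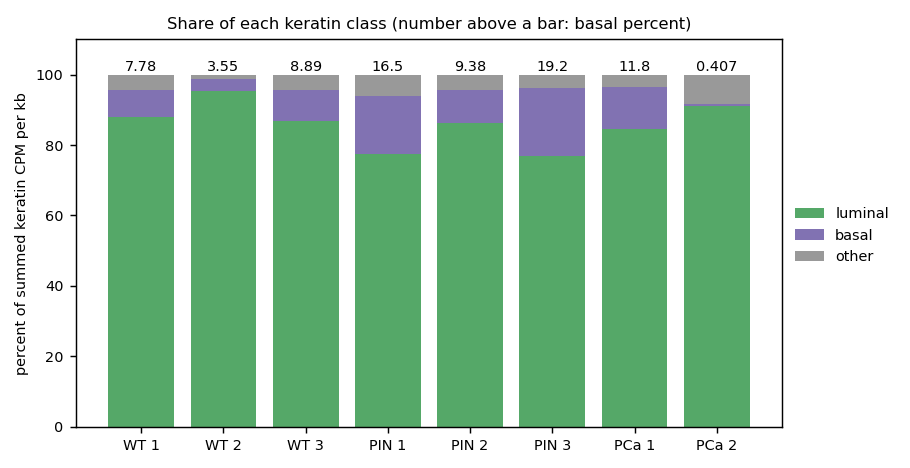
Share of luminal, basal and other keratins in the summed CPM per kb of all keratins, in percent, for each library, with the basal percent printed above each bar. The basal share is 9.38% to 19.2% in PIN, 3.55% to 8.89% in WT, and 11.8% and 0.407% in the PCa libraries.

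Because filaments need a type I and a type II chain, the ratio of partners was set out per library. For the luminal pair, Krt18 per kb over Krt8 per kb was 4.71, 2.62 and 3.82 in WT, 2.76, 5.53 and 4.35 in PIN, and 3.56 and 2.27 in PCa. It stayed above 1 in every library, and the groups overlapped. For the basal pair, Krt14 over Krt5 was 0.298, 2.42 and 0.236 in WT, 0.254, 0.335 and 0.267 in PIN, and 0.794 and 0.0818 in PCa. WT 2 was the only library with more Krt14 than Krt5, and in PCa 2 the ratio rested on 9 reads of Krt14. In Krt14 14.4% of stretches of 50 bases are shared with another keratin, mainly Krt16, and in Krt5 8.36% are shared, mainly with Krt6a.

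The stratified pairs were uneven. Krt13, the type I partner of Krt4, had at most 14 reads in any library, against 987 for Krt4 in PIN 1 and 697 in PCa 1. Krt16, the partner of Krt6a, had 30 reads in PCa 1, 1 in PIN 1 and none elsewhere, against 546 for Krt6a in PCa 1 and 99 in PCa 2. Krt10 per kb over Krt1 per kb was 1.06 to 1.67 in WT and 2.09 to 2.75 in PIN. In PCa 2, Krt10 had 62 reads and Krt1 none.

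**Figure D4:**
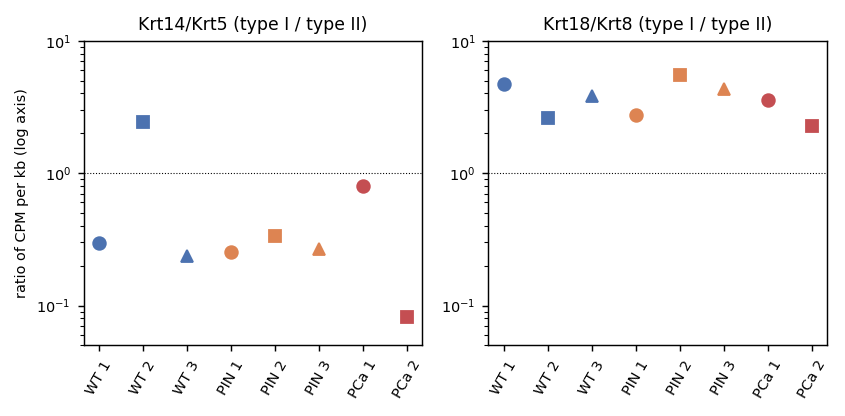
Ratio of type I to type II keratin in each library for the basal pair (Krt14 over Krt5) and the luminal pair (Krt18 over Krt8), as CPM per kb on a log axis with a dotted line at 1. The luminal ratio stays between 2.27 and 5.53, whereas the basal ratio runs from 0.0818 in PCa 2 to 2.42 in WT 2.

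The contrast between the tumors for basal keratins was set beside genes of the structures that anchor keratins. Of 9 hemidesmosome and linked laminin genes, all tested, none was called in any comparison, where 8.54% of all tested genes were called between PCa and WT, 5.72% between PCa and PIN and 0% between PIN and WT. Their median log2 fold change was 0.32 between PCa and WT, against 0.01 over all tested genes. In the PCa 2 library, the lowest for basal keratins, several were also low; these were picked out after their values were seen. Col17a1, the type XVII collagen of hemidesmosomes, read 18.4 to 30.4 CPM in WT, 25.0 to 37.5 in PIN, and 135 and 0.38 in PCa. Lamb3, a laminin chain, read 11.5 to 20.1 CPM in WT, 14.3 to 27.8 in PIN, and 50.1 and 1.37 in PCa. Dst, the plakin that ties keratin to hemidesmosomes in its epithelial form, read 423 and 31.8 CPM in PCa, against 313 to 885 in the WT and PIN libraries.

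Other basal markers did not all read low in the same tumor. Trp63, the p63 transcription factor of basal cells, read 25.5 to 36.2 CPM in WT, 38.3 to 42.9 in PIN, and 46.0 and 21.3 in PCa, so that PCa 2 had its lowest value. Itgb4, the laminin-binding integrin chain, read 23.2 to 49.0 CPM in WT, 38.7 to 61.3 in PIN, and 92.7 and 34.1 in PCa, and its partner Itga6, from the hemidesmosome list, read 191 to 562 CPM in WT, 159 to 351 in PIN, and 115 and 519 in PCa. Trim29 read 39.8 CPM in PCa 1 and 0.65 in PCa 2, against 2.13 to 6.93 in the other libraries, and Aqp3 read 3.93 and 0 CPM in PCa, against 0 to 5.39. None of the 6 basal markers other than keratins (Trp63, Itgb4, Col17a1, Lamb3, Aqp3 and Trim29) was called between PCa and WT, beside 8.54% of all tested genes. Their summed level was 15.9 to 23.4 CPM per kb in WT, 19.2 to 27.8 in PIN, and 69.8 and 8.01 in PCa.

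Of 16 desmosome genes, 13 were tested and 1 was called, where 8.54% of all tested genes were called between PCa and WT and 5.72% between PCa and PIN. Pkp1, plakophilin 1, which links keratins to the desmosomal plaque, read 8.25 to 17.3 CPM in WT, 20.5 to 25.9 in PIN, and 63.7 and 69.8 in PCa, with log2 fold changes of 2.28 between PCa and WT (adjusted p = 0.0104) and 1.58 between PCa and PIN (adjusted p = 0.0350). Like Krt80, it was nearly equal in both tumors. Krtcap2, a subunit of the oligosaccharyltransferase complex named as a keratinocyte-associated protein, was the called member among 11 tested plakins and keratin-associated proteins, lower in PCa than in WT (-1.93, adjusted p = 0.00845) and PIN (-1.40, adjusted p = 0.0260).

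Among 14 genes of the cornified layer, 6 were tested and 3 rose in PCa against WT, where 4.35% of all tested genes were called higher. Of the 3, Tgm5 and Calml3 passed the filter only through the PCa libraries, where they are high, so nothing is read from this count. Tgm1, the membrane-bound transglutaminase that crosslinks the cornified envelope, read 1.28 to 2.22 CPM in WT, 1.51 to 2.45 in PIN, and 9.72 and 11.9 in PCa (log2 fold change 2.58, adjusted p = 0.0149). Tgm5 rose by 3.33 (adjusted p = 0.0478). Calml3, a calmodulin-like protein of epithelial cells, read under 0.5 CPM in WT and PIN and 117 and 6.34 in PCa (8.38, adjusted p = 0.0206). Tgm3, a transglutaminase of hair follicle and epidermis, did not pass the filter and was picked out after its values were seen: it read 55.8 CPM in PCa 2 and at most 0.172 elsewhere. Ivl, Lor and other late envelope genes were not called or not tested.

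Of 18 listed regulators of keratin genes, 15 were tested and 2 called in each comparison with PCa, where 8.54% (against WT) and 5.72% (against PIN) of all tested genes were called. Tfap2c, the AP-2 gamma factor, read 10.3 to 17.6 CPM in WT, 15.4 to 22.3 in PIN, and 418 and 48.6 in PCa (3.96 between PCa and WT, adjusted p = 0.0237, and 3.57 between PCa and PIN, adjusted p = 0.0385). Ehf, an ETS factor of glandular epithelium, read 1011 to 2045 CPM in WT, 1510 to 2112 in PIN, and 481 and 215 in PCa (-2.09 between PCa and WT, adjusted p = 0.0417, and -2.39 between PCa and PIN, adjusted p = 0.0380).

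**Figure D5:**
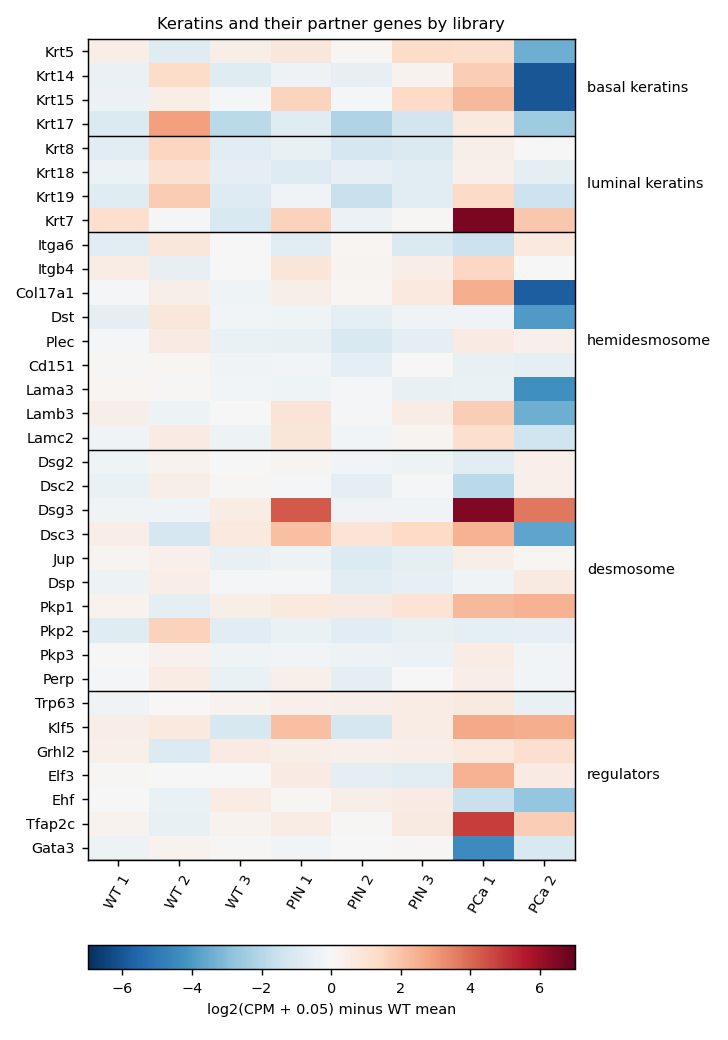
Level of keratins, anchoring genes and regulators in each library as log2(CPM + 0.05) minus the WT mean of that value, from blue (lower) to red (higher). In PCa 2 Krt5, Krt14, Krt15, Col17a1, Dst, Lama3 and Lamb3 are low while Itgb4 is within the range of WT and Trp63 just below it; in PCa 1 Krt7, Tfap2c and Dsg3 are high. Genes near 0 CPM, such as Dsg3, take their depth of color partly from the added 0.05.

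Of 16 other intermediate filament genes, 11 were tested and 2 called between PCa and WT, where 8.54% of all tested genes were called. Des, the desmin of muscle, read 189 to 424 CPM in WT, 282 to 493 in PIN, and 5.70 and 0.89 in PCa (-6.65, adjusted p = 0.0104). Lmnb1, lamin B1 of the nuclear lamina, read 4.85 to 8.35 CPM in WT, 7.76 to 8.96 in PIN, and 36.4 and 30.8 in PCa (2.36, adjusted p = 0.00791). Vim, the vimentin of mesenchymal cells, was not called (-0.81, adjusted p = 0.448), with 59.4 to 118 CPM in WT and 76.5 and 15.4 in PCa.

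The cell type lists not yet described gave the following levels. All 6 smooth muscle genes (Acta2, Myh11, Actg2, Cnn1, Tagln and Des) were called lower in PCa than in WT, where 4.18% of all tested genes were called lower, and their summed level was 808 to 1768 CPM per kb in WT, 1190 to 2233 in PIN, and 20.0 and 9.04 in PCa. The 6 general epithelial markers, Epcam, Cdh1, Cldn4, Cldn7, Spint1 and Spint2, were not called, and they summed to 814 to 1701 CPM per kb in WT, 753 to 1241 in PIN, and 1001 and 813 in PCa. Of 8 luminal secretory markers tested, beside the same 4.18%, Pbsn, Tgm4 and Fgl1 were called lower in PCa than in WT, at -8.70, -7.81 and -10.0 (adjusted p = 0.0123, 0.0123 and 0.00461), in the same libraries in which Krt8 and Krt18 were not called. Of the 6 fibroblast, 5 leukocyte, 4 endothelial and 2 neuroendocrine genes tested, none was called in any comparison, where the shares over all tested genes were 8.54% between PCa and WT and 5.72% between PCa and PIN; lists this short can have no call at these shares. Fibroblast genes summed to 192 to 278 CPM per kb in WT, 252 to 274 in PIN, and 272 and 116 in PCa, leukocyte genes to 4.37 to 8.67, 4.24 to 15, and 21.0 and 3.00, endothelial genes to 2.62 to 14.7, 13.4 to 16.1, and 19.6 and 17.2, and neuroendocrine genes to 0.0916 to 1.52, 0.295 to 0.984, and 0.755 and 0.0577. Their part in the keratin results was not tested.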

How the data were processed

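Bulk RNA-seq of mouse prostate (3 WT, 3 PIN and 2 PCa libraries) was used. According to the methods and labels, the authors extracted RNA from fresh tissue, built ribosomal RNA-depleted paired-end libraries, trimmed reads with cutadapt 1.9.1, aligned them to mm9 with HISAT2 2.1.0 and deposited the raw read counts per gene made with HTSeq 0.6.1. The strand setting of the counting was not given in the sources used here.

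From these counts, edgeR 4.0.16 in R 4.3.3 was run on the whole table: TMM scaling, genes above 1 CPM in at least 2 of the 8 libraries, 1 model of 3 groups with 5 residual degrees of freedom, quasi-likelihood F-test and Benjamini-Hochberg adjustment over all 14034 genes tested. SE is the size of the log2 fold change divided by the square root of F. CPM values are TMM-scaled, and levels per kb are divided by summed exon length. All 50 keratin identifiers had the same coordinates in GENCODE M1 (mm9). Count intervals are exact 95% intervals and cover counting error only. The script was tested on simulated data. DESeq2 1.42.0, other scalings, filters and sample sets were alternatives.

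Named were all tested basal and luminal keratins, other keratins called or among the 6 with the highest level per length, called members of the partner lists and called members of the cell type lists; exceptions are stated. The members and lists were chosen with earlier results of these data known, so they are not independent evidence. Where a listed symbol occurred on several rows, the row with most reads was used. The summed level of the proximal luminal marker list is not reported here.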

Additional observations from a re-analysis of the deposited data

How the results depend on the processing

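No keratin was called between PIN and WT under any alternative. Between PCa and WT, where 3 keratins and 1198 genes in all were called, DESeq2 called 5 keratins (with Krt20 and Krt78) of 2487 genes, a fit of only the groups compared 1 of 130 and upper-quartile scaling 2 of 1108. Between PCa and PIN, where 1 keratin and 803 genes were called, DESeq2 called 2 of 1984 and the fit of only the groups compared 0 of 388. With 1 library left out, the counts ran from 0 to 4 and from 0 to 4; without WT 3 no keratin was called in either comparison, and without PCa 1 the 4 were Krt5, Krt14, Krt15 and Krt80, of 2477 and 2251 genes called in all. Krt7 also lost its call between PCa and WT under upper-quartile scaling (5.46, adjusted p = 0.0504), under the fit of only the groups compared (adjusted p = 0.131) and under the replicate block (adjusted p = 0.0668).

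The replicate number as a replicate block gave 1 keratin call of 413 between PCa and WT and 0 of 151 between PCa and PIN, and turned the direction of Krt14 (-0.16), Krt15 (-0.13) and Krt5 (-0.41) between PCa and WT and of Krt15 (-0.66) between PCa and PIN, none of them called. Deviations of same-numbered libraries correlated between -0.06 and 0.28, not all above 0.1. WT 1, WT 2, PIN 1, PCa 1 and PCa 2 correlated best with a library of their own number, whereas WT 3, PIN 2 and PIN 3 did not. The deviations of both PCa libraries mirror each other by construction, so this check cannot decide whether same-numbered libraries are paired. Upper-quartile scaling turned Krt19 between PCa and WT (0.14).

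Leaving out 1 library turned 20 of 45 keratin fold changes in 27 of 354 values. The log2 fold changes then ran, between PIN and WT, from -1.72 to 0.12 (Krt19), -0.46 to 1.19 (Krt7), -3.35 to 0.062 (Krt17) and -0.86 to 0.45 (Krt14). Between PCa and WT they ran from -1.47 to 1.10 (Krt10), -1.98 to 1.42 (Krt19), -0.90 to 0.45 (Krt18), -4.03 to 1.26 (Krt17), -6.46 to 1.44 (Krt14), -0.59 to 0.95 (Krt8), -6.07 to 2.27 (Krt15) and -3.51 to 1.12 (Krt5). Between PCa and PIN they ran from -1.82 to 0.74 (Krt10), -0.66 to 2.12 (Krt19), -1.22 to 2.08 (Krt17), -5.95 to 1.95 (Krt14), -0.14 to 1.9 (Krt78), -7.13 to 1.21 (Krt15), -0.70 to 1.89 (Krt4) and -4.21 to 0.43 (Krt5). DESeq2 called more partner genes between PCa and WT (3 of 13 desmosome genes, 3 of 11 plakins and 5 of 15 regulators), as it did over all genes (2487 of 14034, against 1198). Partner genes were not refitted with libraries left out. With 2 tumors, the spread within PCa limits all comparisons with it, and the cause of the changes was not tested.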
